A study of Mus musculus with 2 samples.

Results

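The Robo and Slit genes were described by the chromatin boundaries that lie around and inside them in mature olfactory sensory neurons (OSNs) of the mouse. The 6 genes Robo1, Robo2, Robo3, Slit1, Slit2 and Slit3 were taken by name, out of 21755 protein-coding genes on chromosomes 1 to 19 and X in GENCODE mouse release 21. The measurement was in situ Hi-C, in which crosslinked chromatin is cut with an enzyme and ends held near each other are ligated and sequenced. There was 1 group, adult 129P2/OlaHsd mice of mixed sex whose OMP-GFP reporter marks mature OSNs, from which the cells were sorted out of the olfactory epithelium, with no treatment. Its 2 biological replicates, of 3000000 and 1500000 cells, were pooled by the authors into 1 contact map on GRCm38, and boundaries were called on that map.

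Slits are large secreted proteins, and Robo receptors on the growth cone bind them and, in most settings, turn the axon away. In the olfactory system, Robo2 and Slit1 are known for sorting OSN axons along the dorsal to ventral axis of the olfactory bulb. Chromatin boundaries are the borders between neighbouring contact domains. Contacts between a promoter and distant DNA are fewer across a border than within a domain, and the protein CTCF, which stalls cohesin, marks many borders.

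The deposited list held 8058 boundaries, each a 5 kb interval with the authors' strength, a score with no stated scale that ran from 0.2 to 4.32 (median 0.509). The authors' classes meet at 0.5, with Strong above it (50.8% of all) and Weak below it. Strengths are the authors' values and rank boundaries within this list only. Distances are between the 5 kb bin of the transcription start site (TSS, where the gene record begins) and that of the boundary, and a domain is the distance between adjacent boundaries. Since both replicates share 1 list, the values carry no replicate error, and no test was made. The map averages all sorted neurons, so cells that differ in their use of a Robo or Slit gene cannot be told apart. The file holds boundaries only, so the cell type was not checked against marker genes, and contact depth is unknown.

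Around the 6 genes, 16 boundaries were the nearest on either side of a gene or lay inside one, and 10 of them were Strong (62.5%). Their median strength was 0.654, with values from 0.21 to 1.70, and 6 of them were in the strongest 25% of the list, which begins at 0.928. Robo2 alone had a boundary at most 20 kb away from its TSS, so 1 of 6 genes had one, while 21.2% of all protein-coding genes did. That boundary was Strong, as was the case for 13.7% of coding genes. Slit2 lay just outside the window, with a Weak boundary 25 kb from its TSS. By gene records, the median distance from TSS to the nearest boundary was 60 kb for the 6 genes and 60 kb for all coding genes. From the start of the transcript with the longest coding sequence, the median of the 6 genes was 45 kb. Robo1 alone moved, from 160 to 50 kb, and the median of all coding genes from such starts was not computed.

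**Figure D1:**
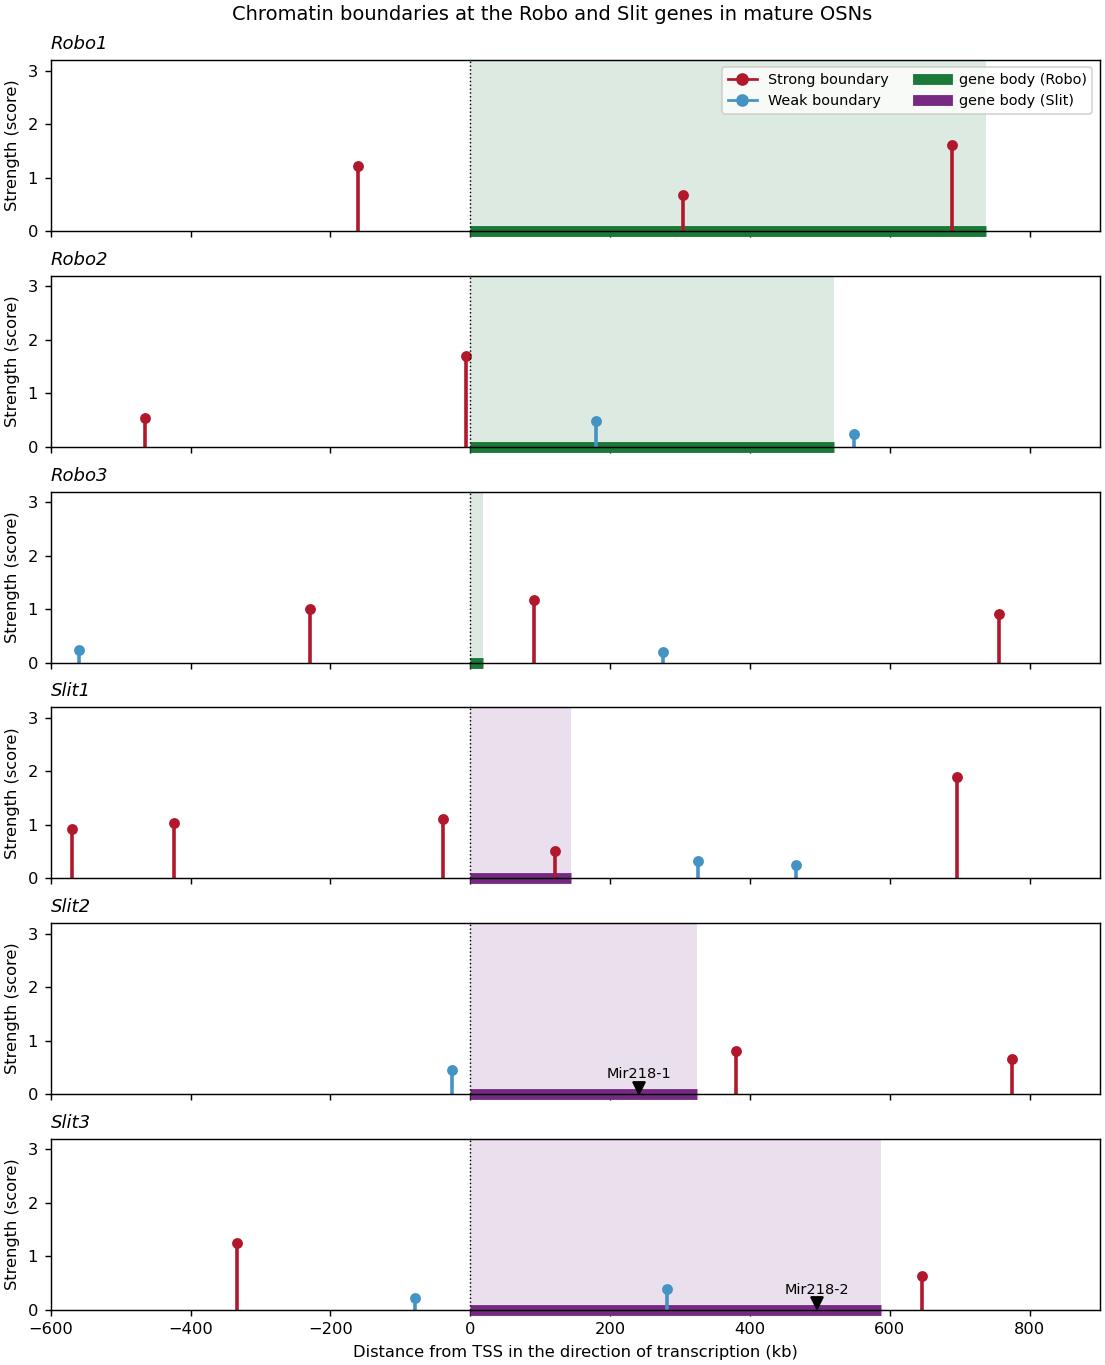
Boundaries (stems, height is the authors' strength score) against distance from the TSS in kb, in the direction of transcription, with 1 panel per gene and the gene body shaded. Robo2 has a Strong boundary of 1.70 beside its TSS, Slit2 and Robo3 have none inside the gene, and triangles mark the miR-218 genes.

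Robo2, a receptor used by OSN axons, is 520 kb long and lies on the minus strand of chromosome 16 at 73891839 to 74411825. Its boundary at chr16:74415001-74420000 had a strength of 1.70, rank 513 of 8058, and lay upstream of the TSS in the adjoining bin, with its middle 5.68 kb from the TSS. A boundary at least this strong lay within 5 kb of 145 coding TSSs (0.667%). By GENCODE gene records, no coding gene covered the interval. In the other direction the nearest boundary was Weak (0.488, chr16:74230001-74235000) and lay 179 kb into the gene. It fell in intron 2 of the transcript with the longest coding sequence, a 306 kb intron, so that 2 of 29 exons lay before it and 27 after it. A Weak boundary of 0.237 lay 30 kb past the 3′ end. The domain of the Robo2 TSS was 185 kb, and 72.3% of all domains were longer. With Strong boundaries only, that of 0.488, just under the class limit, and that of 0.237 both drop out. The domain then ends at the boundary of 1.62 inside Robo1 and is 1420 kb, with 7.84% of such domains longer.

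The start site that adjoins the boundary is not the only annotated start of Robo2. RefSeq gives curated transcripts of Robo2 with 3 start sites, at 74411825, 75092770 and 75447293, the last of which is the 5′ end of the lincRNA Gm49678 in GENCODE. The start at 75092770 lay 190 kb from the nearest boundary (Weak, 0.454), and that at 75447293 lay 165 kb from the same boundary. The domains of these 2 starts measured 405 and 345 kb, beside 185 kb for the start at 74411825. Transcripts from the most distant start span 1555 kb and cross 4 boundaries, among them the Strong one of 1.70, while those from the nearest start cross 1. If the RefSeq gene record, which reaches the most distant start, is taken in place of the GENCODE one, 0 of the 6 genes has a boundary in the 20 kb window. Which start OSNs use was not tested. The 250 bases before each start are shown 5′ to 3′ on the minus strand, because the start sites differ in their distance from the boundary; capitals mark GATC, the DpnII sites at which the library was cut. The sequences are RefSeq's for GRCm38.p6, from the C57BL/6J strain and not from 129P2/OlaHsd.
Robo2 start at 74411825, chr16:74411826-74412075: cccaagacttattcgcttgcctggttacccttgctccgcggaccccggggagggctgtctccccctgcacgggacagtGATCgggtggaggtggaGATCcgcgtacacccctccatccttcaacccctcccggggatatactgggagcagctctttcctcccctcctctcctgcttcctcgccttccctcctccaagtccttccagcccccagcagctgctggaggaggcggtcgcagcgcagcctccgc
Robo2 start at 75092770, chr16:75092771-75093020: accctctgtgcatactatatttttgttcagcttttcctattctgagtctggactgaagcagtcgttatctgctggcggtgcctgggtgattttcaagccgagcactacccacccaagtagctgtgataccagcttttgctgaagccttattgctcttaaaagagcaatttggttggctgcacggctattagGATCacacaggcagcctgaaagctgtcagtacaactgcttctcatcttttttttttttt
Robo2 start at 75447293, chr16:75447294-75447543: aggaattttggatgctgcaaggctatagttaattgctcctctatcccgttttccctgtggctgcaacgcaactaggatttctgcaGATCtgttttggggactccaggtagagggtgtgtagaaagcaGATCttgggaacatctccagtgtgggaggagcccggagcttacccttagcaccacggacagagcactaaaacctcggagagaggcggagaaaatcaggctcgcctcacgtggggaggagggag

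Windows were counted over 250 bases before and 50 after each start. That of the start at 74411825 had a GC content of 65.0%, above 75.6% of the 21263 coding promoter windows. It lies in the bin next to the boundary, and the boundary interval itself had a GC content of 40.8%. The windows at 75092770 and 75447293 had 45.0 and 53.3%, against a median of 56.3% over coding promoters. The ratio of observed to expected CpG was 0.554 at the start next to the boundary, and 0.335 and 0.447 at the distant starts (median of coding promoters 0.567).

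**Figure D2:**
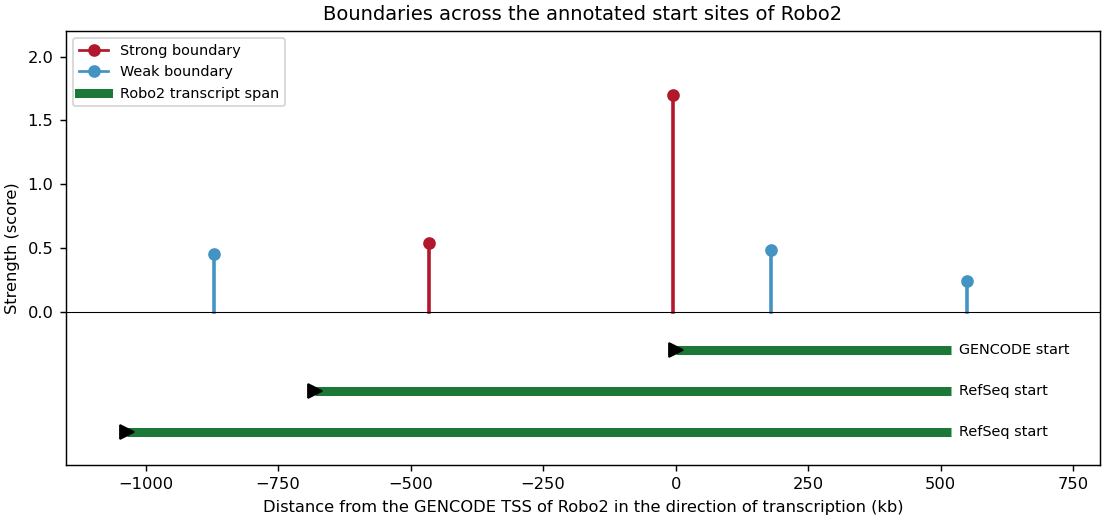
Boundary strength (score, stems) against distance from the GENCODE TSS of Robo2 in kb, with green bars for the spans of transcripts from the 3 curated start sites (arrowheads). The Strong boundary of 1.70 stands beside the GENCODE start and inside the spans of the other transcripts.

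Robo1, the other receptor of this chromosome, is 738 kb long, longer than 99.5% of coding genes, and lies on the plus strand at 72308306 to 73046095. By the GENCODE gene record, its TSS was the farthest from a boundary among the 6 genes, at 160 kb from a Strong boundary of 1.21 (chr16:72145001-72150000). Of all coding genes, 87.1% had a nearer boundary. Inside the gene lay 2 Strong boundaries. That of 0.684 at chr16:72610001-72615000 was in the 178 kb intron 1 of the transcript with the longest coding sequence, after 1 of its 29 exons. That of 1.62, rank 592, at chr16:72995001-73000000 was centred in intron 19, 48.6 kb before the 3′ end, with 19 exons before it and 10 after it; its interval also covered 1 annotated exon.

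The annotated coding starts of Robo1 fall on both sides of its first internal boundary. GENCODE places them at 72308306, 72563700 and 72663149, and the boundary of 0.684 lay 50 kb from each of the last 2, so that from either of these starts Robo3, at 90 kb, is the farthest of the 6 genes. The start at 72563700 belongs to the transcript with the longest coding sequence and lies in the domain of the first start, 465 kb in size. The start at 72663149, the curated one of RefSeq, lies in the next domain, 385 kb in size. From that start the span is 383 kb and holds 1 boundary, while the RefSeq gene record of Robo1 holds 3.

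Robo1 and Robo2 are transcribed toward each other, and their 3′ ends lie 846 kb apart. The domain between the Strong boundary near the end of Robo1 and the Weak one beyond the end of Robo2 measured 865 kb, rank 168 of 7997 domains without long assembly gaps, and 2.09% of domains were longer. It held no coding TSS, as did 28.1% of all domains. Its ends were unlike in strength, with 1.62 on the side of Robo1 and 0.237 on the side of Robo2.

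Robo3, a divergent receptor that lets commissural axons cross the midline, is the short gene among the 6, with 17.6 kb on the minus strand of chromosome 9 at 37415669 to 37433246. It lay wholly within a domain of 320 kb that was Strong at both ends, 1.18 at 90 kb downstream of the TSS (chr9:37340001-37345000) and 0.998 at 230 kb upstream (chr9:37660001-37665000). The domain held 10 other coding TSSs, or 11 with that of Robo3, and 3.58% of domains held 11 or more. That share counts each domain once. The share of coding genes that lie in such domains, which must be higher, was not computed. The nearest of the other TSSs was that of Robo4, the Robo gene of blood vessels, transcribed toward Robo3 with 553 bp between their 3′ ends. Next came Msantd2, Hepacam, Ccdc15 and Esam, of which Hepacam and Esam encode cell adhesion proteins. The upstream boundary also borders an olfactory receptor gene cluster: its first gene, Olfr160, began 44 kb beyond the boundary and 276 kb from the Robo3 TSS.

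Slit1, a ligand that repels OSN axons bearing Robo2, is 143 kb long and lies on the minus strand of chromosome 19 at 41600257 to 41743665. A Strong boundary of 1.11 lay 40 kb upstream of its TSS (chr19:41780001-41785000) inside the neighbouring gene Arhgap19, 20 kb from that gene's TSS. A boundary just above the limit of the Strong class (0.508, chr19:41620001-41625000) lay inside Slit1, centred in intron 25, 22.2 kb before the 3′ end. It left 25 exons before it and 12 after it, and its interval also covered 1 annotated exon. The domain of the TSS, 160 kb, was the smallest of the 6, and 81.3% of all domains were longer.

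Slit2, a midline repellent of commissural axons, is 325 kb long and lies on the plus strand of chromosome 5 at 47983138 to 48307733. No boundary lay inside it, and the whole gene stood within 1 domain of 405 kb. The ends of that domain were a Weak boundary of 0.445 at 25 kb upstream of the TSS (chr5:47955001-47960000) and a Strong one of 0.796 at 55 kb past the 3′ end (chr5:48360001-48365000). With Strong boundaries only, the nearest to the Slit2 TSS was that of 0.796, at 380 kb. The only other coding TSS in the domain was that of 5730480H06Rik, 345 kb away.

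Slit3 is 587 kb long and lies on the plus strand of chromosome 11 at 35121224 to 35708507. Its TSS had Weak boundaries on both sides, the single case among the 6 genes. The upstream one, of 0.210 (chr11:35040001-35045000), lay 80 kb away and ranked 7793 of 8058, and the downstream one, of 0.395 (chr11:35400001-35405000), lay 281 kb into the gene in its 273 kb intron 4. It had 4 exons before it and 32 after it. With Strong boundaries only, the nearest to the TSS lay 335 kb away, upstream. Downstream, the first Strong boundary, of 0.625 (chr11:35765001-35770000), lay 60 kb past the 3′ end, in the same bin as the TSS of Pank3, a pantothenate kinase gene.

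Slit2 and Slit3 each hold a copy of the miR-218 gene in an intron, and the copies differ in how they stand to the boundaries. Mir218-1 lies in intron 16 of Slit2 at chr5:48223942-48224051, 241 kb from the TSS and in the same domain. Mir218-2 lies in intron 14 of Slit3 at chr11:35616816-35616925, 496 kb from the TSS, and the Weak boundary of 0.395 stands between it and the TSS. Without Weak boundaries both copies share a domain with the TSS of their host. The main product of both genes is the same in sequence, and the products of the other arm differ; capitals mark the seed, bases 2 to 8, and sequences are RefSeq's for GRCm38.p6.
mmu-miR-218-5p: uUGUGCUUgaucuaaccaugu
mmu-miR-218-1-3p: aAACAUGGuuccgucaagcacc
mmu-miR-218-2-3p: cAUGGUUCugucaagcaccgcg

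Along the gene bodies, 4 of the 6 genes held at least 1 boundary, while 12.9% of all coding genes did. Long genes hold boundaries more often. Of the 4 genes of 200 kb or more, Robo1, Robo2 and Slit3 had one inside, 3 of 4, beside 66.3% of all coding genes of that length. The share was 79.2% for coding genes of 400 to 800 kb, the class of these 3. For those of 200 to 400 kb, the class of Slit2, it was 57.0%. Slit1 had one, as did 33.7% of coding genes of 100 to 200 kb. The 5 internal boundaries had strengths of 1.62, 0.684, 0.508, 0.488 and 0.395, and all had their middle in an intron. Those of 1.62 and 0.508 were in the last part of Robo1 and Slit1, at 93.4 and 84.5% of the gene's length. The remaining 3 were at 34.5% in Robo2, 41.2% in Robo1 and 47.9% in Slit3, each in an intron of over 100 kb. Percentages run along the gene record. Introns are those of the transcript with the longest coding sequence, which in Robo1 begins inside the gene record, at 72563700.

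The domains of the TSSs measured 465 kb for Robo1, 185 kb for Robo2, 320 kb for Robo3, 160 kb for Slit1, 405 kb for Slit2 and 360 kb for Slit3, beside a median of 260 kb over all domains (interquartile range 180 to 380 kb). With Strong boundaries only, the domains of Slit2 and Slit3 measured 1975 and 980 kb, while those of Robo1, Robo3 and Slit1 were the same; the median over all domains was then 400 kb. Robo1, Robo2, Slit1 and Slit3 were each the only gene with a coding TSS in their domain, 4 of 6, while 9.55% of coding genes were. Of the 4 genes of 200 kb or more, 3 were alone in this way, beside 53.4% of coding genes of that length. Gene length moves with these counts, and its part in them was not tested beyond these shares. The medians over all domains count each domain once, including the 28.1% with no coding TSS. They are an unlike background for domains reached through a gene, and no median over the domains of coding TSSs was computed.

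**Figure D3:**
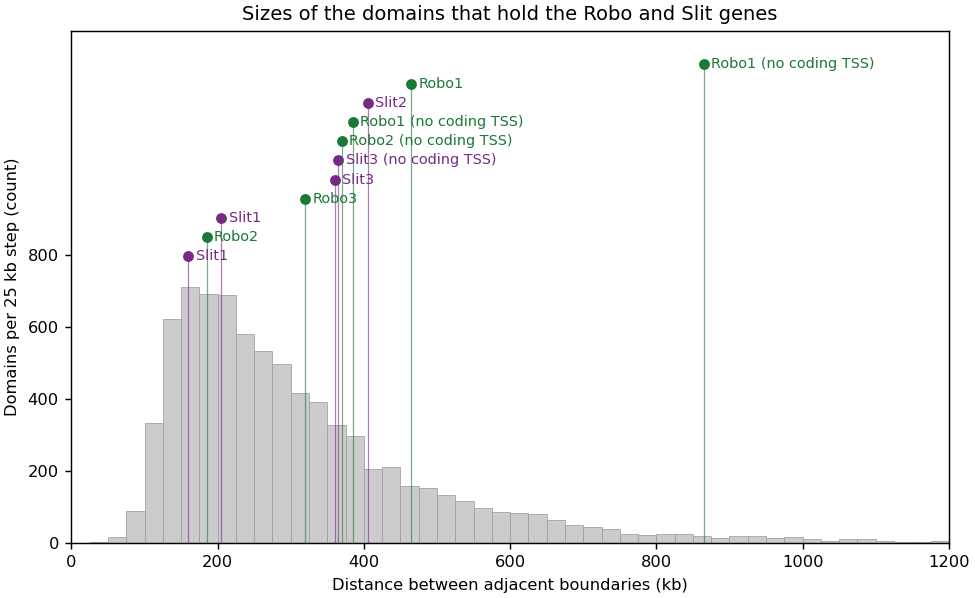
Number of domains per 25 kb step of size (grey bars, distance between adjacent boundaries in kb, sizes up to 1200 kb shown), with the domains that overlap a Robo (green) or Slit (purple) gene marked by stems whose heights only separate the labels. The domain of 865 kb at the end of Robo1 stands far right of the others, which lie between 160 and 465 kb.

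**Figure D4:**
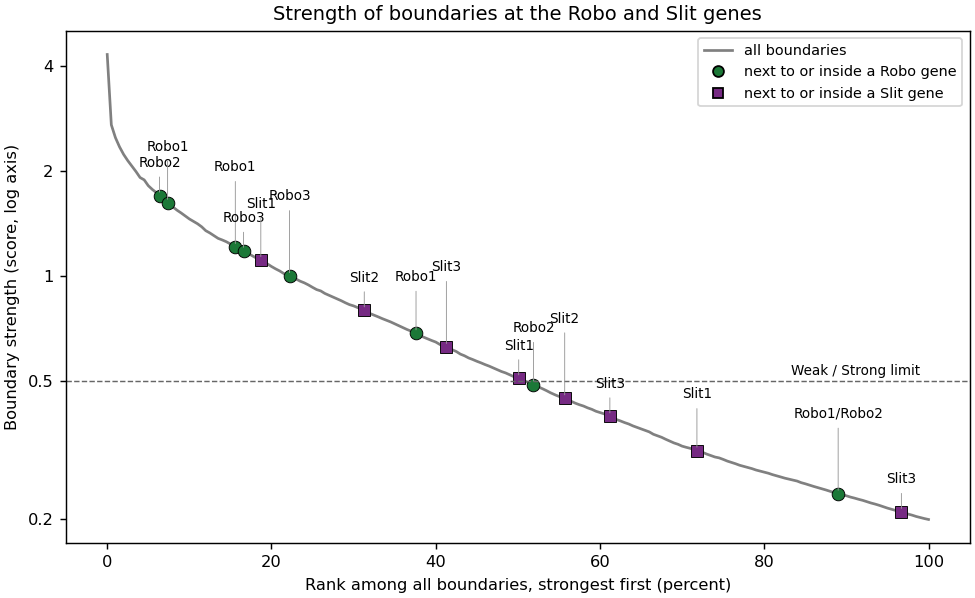
Boundary strength (score, log axis) against rank in percent for all boundaries (line) and for the 16 next to or inside the genes (points, named by gene). Boundaries of Robo2 and Robo1 stand at ranks of 6.37 and 7.35%, and the upstream boundary of Slit3 at 96.7%.

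Of the 16 boundaries, 5 had a coding TSS within 20 kb, beside 37.6% of all boundaries. The genes with the nearest such TSS were Robo2 itself, Ccdc15 and Panx3 at the ends of the Robo3 domain, Arhgap19 near Slit1 and Pank3 past Slit3. An exact match to the CTCF core consensus within 20 kb was found at 4 of the 16, beside 21.9% of all boundaries. The boundaries with a match were both internal ones of Robo1, the one past the end of Slit2 and the one upstream of Slit1. The boundary of Robo2 had none, which says only that these letters do not stand within 20 kb in the reference. All 4 matches lay on the minus strand, to the left of their boundary, and pointed away from it. Over all boundaries, 69.5% of the matches outside the boundary interval pointed away. The matches are shown 5′ to 3′ on the minus strand of GRCm38.p6 with 20 bases of flank on each side and the core in capitals, to let their letters be compared.
Robo1, 7.24 kb from the boundary of 0.684, chr16:72605237-72605290: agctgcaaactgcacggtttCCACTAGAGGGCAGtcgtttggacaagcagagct
Robo1, 12.1 kb from the boundary of 1.62, chr16:72985346-72985399: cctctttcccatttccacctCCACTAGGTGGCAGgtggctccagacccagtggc
Slit1, 18.4 kb from the boundary of 1.11, chr19:41764043-41764096: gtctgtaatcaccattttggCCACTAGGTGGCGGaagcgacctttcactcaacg
Slit2, 16.6 kb from the boundary of 0.796, chr5:48345849-48345902: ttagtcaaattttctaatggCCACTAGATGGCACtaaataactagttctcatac

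RefSeq promoter windows were at hand for 5 of the genes, with 3 for Robo2, and none for Slit1. The motifs, chosen after the boundary list had been examined, were the TATA box (TATAAA), the GC box (GGGCGG), the homeodomain core read by factors such as Lhx2 (TAATTA) and the palindromic 10-base Ebf site, each searched on both strands. Robo3 held 3 GC boxes, 1 homeodomain core and 1 Ebf site. Of all coding promoter windows, 46.2% held a GC box, 4.53% a homeodomain core and 0.959% an Ebf site. Slit2 held 1 TATA box (12.6% of coding promoters) and 3 GC boxes, and Slit3 6 GC boxes. The windows of Robo1 and Robo2 held none of the 4 motifs. GC content was 78.3% for Slit3, above 97.7% of coding promoters, and 68.0% for Slit2, 63.3% for Robo3 and 57.0% for Robo1 at its start of 72663149. The Robo3 bases before the start are shown 5′ to 3′ on the minus strand, since this window alone held both motifs of OSN regulators, with the matches that fall in these bases, on either strand, in capitals. A match is a description of letters, not of binding.
Robo3 start at 37433175, chr9:37433176-37433425: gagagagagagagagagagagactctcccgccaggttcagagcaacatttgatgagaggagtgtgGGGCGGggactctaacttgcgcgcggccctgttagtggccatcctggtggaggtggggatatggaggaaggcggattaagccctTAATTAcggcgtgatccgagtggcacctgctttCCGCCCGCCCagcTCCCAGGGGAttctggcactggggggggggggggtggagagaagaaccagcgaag

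Of 42 other genes of the Slit-Robo pathway, 7 had a boundary at most 20 kb from the TSS, beside 21.2% of coding genes, and the median distance of the 42 was 65 kb. Among ligands, 1 of 4 had one, Ntn1, the netrin gene (Strong, 0.777, 15 kb away). Nell2, a Robo3 ligand, lay 175 kb from a Strong boundary of 1.34, Ndnf 180 kb and Ntn3 140 kb from theirs. Among receptors and coreceptors, Plxna1, which binds a Slit fragment (Weak, 0.386), and Dscam (Weak, 0.421) had one, each 5 kb away, 2 of 8. Dcc, the netrin receptor, lay 285 kb from a boundary and held 4 inside its 1097 kb, and Robo4, Neo1, Gpc1, Sdc1 and Flrt3 lay 35 to 125 kb away. Of 21 effectors, 2 had one, the adaptor gene Nck2 (Weak, 0.499) and the actin regulator Evl (Strong, 0.775), each in the bin of the TSS. Among 6 regulators, Hoxa2 (Strong, 0.989) and Lhx2 (Weak, 0.347), a transcription factor of OSNs, had one at 5 kb, and of 3 heparan sulfate synthesis genes, none did.

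**Figure D5:**
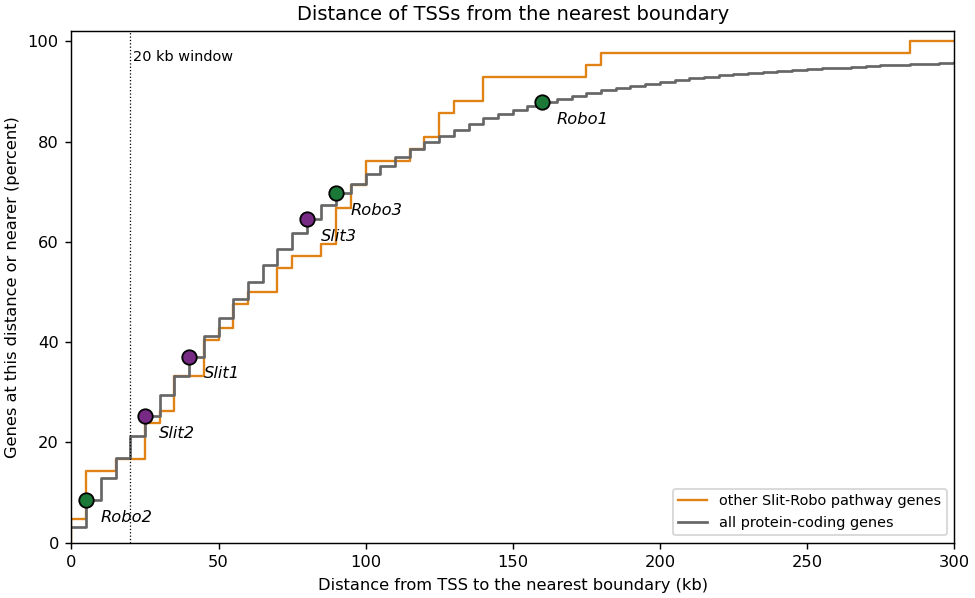
Percent of genes whose TSS has a boundary at a given distance in kb or nearer, for all protein-coding genes (grey) and 42 other Slit-Robo pathway genes (orange), with the 6 genes as points on the grey curve. Robo2 at 5 kb is the only point left of the 20 kb line, and Robo1, from its GENCODE gene record, is the farthest at 160 kb.

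The coding genes whose placement was most like that of each gene were found over 5 measures ranked in 21538 coding genes of this map: gene length and the distance and strength of the boundary on either side of the TSS. Robo2 was most like Gucd1 (rank distance 0.102, with a boundary of 1.67 at 5 kb upstream) and Tango6 (0.117). Robo1 was most like Plch1 (0.092) and Nell2 (0.127). Robo3 was most like Nfu1 (0.102) and Aifm2 (0.107), Slit1 like Syne2 (0.062) and Hk1 (0.089), Slit2 like Tcf4 (0.066) and Fggy (0.067), and Slit3 like Pdgfd (0.083) and Ank1 (0.087). A smaller rank distance means a closer likeness, with 0 for the gene itself.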

How the data were processed

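In situ Hi-C was made from 2 replicates of sorted mature OSNs, with 1% formaldehyde and DpnII per the labels. Per the series design text, the authors called boundaries on the combined contact matrix (GRCm38). The names of caller and aligner, and the window, were not given in the sources used here. Each 5 kb boundary carries a strength score that the authors deposited. Contact lists, matrices, insulation and compartment tracks were not used here.

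Gene positions came from GENCODE mouse release 21 and sequence from GRCm38.p6, the build of the list. Python 3.11.15, numpy 2.4.6, pandas 2.3.3 and numba 0.67.0 were used. A boundary counted as near a TSS up to 20 kb from bin to bin, and as inside a gene when its middle was. Domains with over 50 kb of undetermined bases were left out of ranks. The CTCF core of 14 bases was matched exactly on both strands. As a check of the code only, placement and motif search were run on simulated data. They recovered all 1000 planted distances and all 40 planted motifs on each strand. The simulated boundaries lay far enough apart that the planted one was always the nearest, and false motif matches were not counted.

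The genes and the pathway list were chosen with earlier results of these data known. Named genes were the 6 genes, Robo4, nested genes, up to 5 neighbours per domain, genes with the nearest TSS to these boundaries, pathway ligands and receptors with no boundary in the 20 kb window, the 5 pathway genes whose boundary in that window was strongest, and the 2 genes most like each. Plxna1, Lhx2, Olfr160 and Gm49678 fall outside this rule and were named after their values were seen. Alternatives were other windows, classes, start sites, annotations and motif rules.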

Additional observations from a re-analysis of the deposited data

How the results depend on the processing

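No paired analysis was possible because the boundary list used here pools both replicates, and for the same reason no replicate was left out. Of 27 alternative values of the summary counts and medians, 11 stayed within 1.5 times the value reported, and of 78 for single genes 52 did. Within 50 kb, 3 of the 6 genes and 18 of the 42 pathway genes had a boundary, beside 44.9% of coding genes. With Strong boundaries only, 3 pathway genes had one (13.7% of coding genes), 3 boundaries lay inside the 6 genes, the median distance to the nearest was 125 kb and the median domain was 722 kb (400 kb over all domains). In the top 25% of strengths, 1 pathway gene had one (7.03% of coding genes), 1 boundary lay inside the 6 genes, the median distance was 125 kb and the median domain 1045 kb (798 kb over all domains). With RefSeq gene records, chosen after seeing the data, 0 of the 6 genes had a boundary in the 20 kb window and 9 boundaries lay inside them, because the records of Robo1 and Robo2 begin farther upstream. No median over all coding genes was computed to set beside the distances of 125 kb. Counting all annotated genes, the domains held 30 neighbours in place of 11. CTCF core matches were found at 2 of the 16 boundaries within 10 kb (15% of all boundaries), at 10 with 1 mismatch (76.3%) and at 0 with the reversed consensus (0.199%). The count of 1 gene near a boundary was the same within 10 kb (12.8% of coding genes), with Strong boundaries (13.7%), in the top 25% (7.03%) and from any coding start (23.4%). How far contact depth, which is unknown, bears on Weak calls was not tested, and differences between 129P2/OlaHsd and the reference genome were not tested.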

Other observations

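The 16 boundary intervals at the Robo and Slit genes differed in base composition. Their GC content ran from 32.7% upstream of Robo1 to 48.4% past the end of Slit3, with a median of 41.5%, beside 42.2% over all boundaries. The interval upstream of Robo1 stood low in the list, since 0.633% of all boundaries had a lower GC content. DpnII sites numbered 8 to 21 per interval, with a median of 11.5, beside 12 over all boundaries. The most sites, 21, lay in the Weak interval of 0.237 between Robo1 and Robo2, and the fewest, 8, in the Strong ones of 1.21 upstream of Robo1 and 1.18 downstream of Robo3. Still, the Strong intervals of 0.998 and 0.796 each held 15 sites, and the Weak one of 0.315 held 9. The interval of 1.70 beside Robo2 held 9 sites, and 45.9% of it was soft-masked repeat sequence, beside a median of 28.7% over all boundaries.

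Other nested genes stood on either side of the internal boundary of Robo2. Mir691, a miRNA gene, lay 69.8 kb from the Robo2 TSS in the same domain, and the annotated small RNA genes Gm22163 and Gm24272 lay beyond the Weak boundary of 0.488, at 353 and 437 kb from the TSS. In Slit2, the antisense gene 4930518C09Rik lay 22.6 kb from the TSS, in the domain of the TSS.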
